A study of Mus musculus with 60 samples.

Results

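Cholesterol synthesis, cholesterol transport and their control by the sterol regulatory element binding proteins (SREBPs) were examined in the dentate gyrus (DG) through 32 genes chosen by symbol. The genes cover 18 enzymes of the synthesis route, 5 genes of the SREBP pathway, 2 liver X receptors (LXRs), 2 efflux transporters and 5 genes of sterol transport, storage and removal. They are 32 of the 46480 genes in the count files, and all 32 were among the 17040 genes with enough counts to be tested.

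RNA-Seq was performed on whole tissue punches of the dorsal and ventral DG of male C57BL6J mice, which were weaned on day 22 and then kept for 8 weeks in standard housing (SH, 3 mice per cage) or in an enriched environment (EE, 12 mice per cage). Tissue was collected on day 80, and each sample held pooled tissue of several mice. Each housing gave 5 samples of either region, which made 4 groups. SH replicate 3 was left out of both regions, which left 4 SH and 5 EE pools and 18 samples, and a pool gave both a dorsal and a ventral sample from the same mice. The main fit had no term for the pool, so this pairing was used only in an alternative fit. P values of the main fit measure the spread between samples within the groups, each sample of a group coming from another pool. The samples held 22919364 to 28301861 fragments counted on genes (median 25816352). A punch of tissue holds neurons, glia and vessels, so that fewer cells of a type and less RNA per cell cannot be told apart.

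Cholesterol does not cross from the blood into the brain in useful amounts, and brain cells make their own. Synthesis runs from acetyl-CoA through mevalonate and squalene to lanosterol, and then through a series of sterol steps to cholesterol. When sterol is low in the endoplasmic reticulum, SCAP carries the SREBPs to the Golgi for cleavage, and the released factors switch on the synthesis genes. INSIG proteins hold SCAP back when sterol is high. LXRs are nuclear receptors that bind oxysterols and switch on genes of efflux, among them *Abca1* and *Abcg1*.

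All 32 genes were expressed in the DG, each with over 1 TPM in at least 3 samples. TPM is a level scaled for transcript length and for depth, and allows levels of different genes to be compared. *Hmgcs1*, the cytosolic HMG-CoA synthase that opens the mevalonate route, stood highest with 39.8 ± 7.41 TPM (mean ± SD over 18 samples). It was followed by *Msmo1*, a sterol demethylase, with 26.6 ± 5.34 TPM and *Fdps*, the farnesyl diphosphate synthase, with 25.2 ± 4.37 TPM, although its unique counts were 3.11% of its expected count. The ranges of these neighbours overlapped, since *Hmgcs1* spanned 27.5 to 52.8 TPM, *Msmo1* 19.2 to 37.5 TPM and *Fdps* 16.4 to 33.1 TPM. Highest among the genes of transport and removal was *Cyp46a1*, the neuronal cholesterol 24-hydroxylase, with 17.5 ± 3.602 TPM, and highest in the SREBP pathway was *Insig1*, which retains SCAP, with 17.2 ± 2.77 TPM. *Nr1h2* (LXR beta) had 7.25 ± 1.14 TPM, and *Nr1h3* (LXR alpha) was the lowest of the 32 with 1.196 ± 0.337 TPM. *Abcg1* had 9.53 ± 3.01 TPM and *Abca1* 3.49 ± 0.723 TPM.

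**Figure D1:**
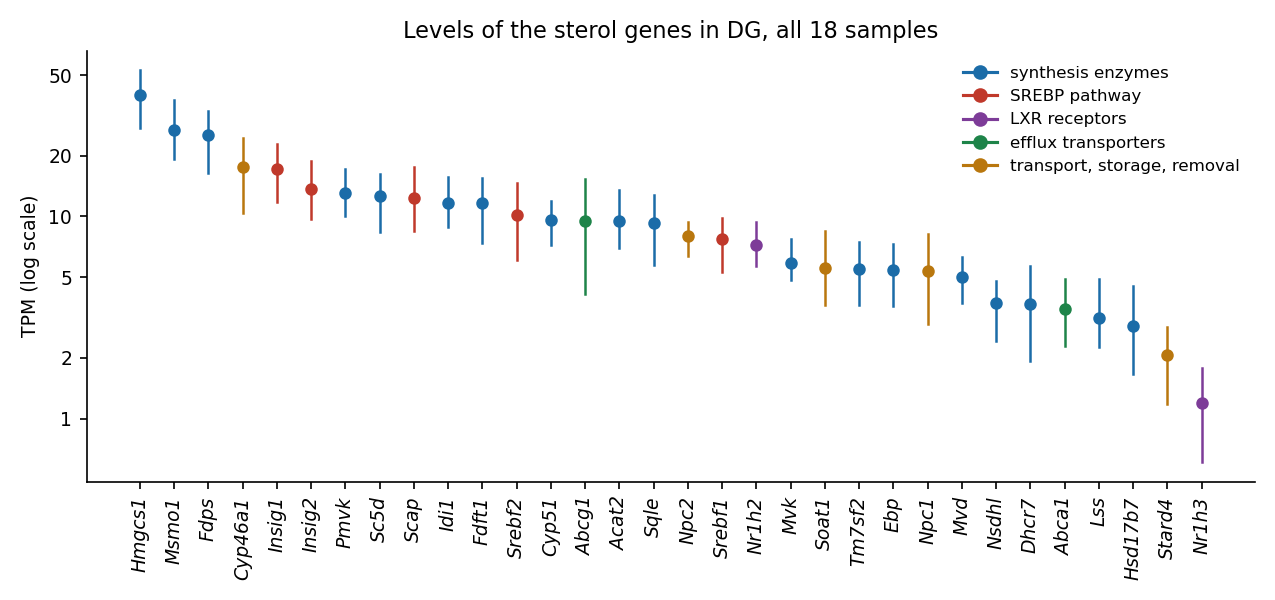
Level of each of the 32 genes in TPM on a log axis, in order of the mean. Points are means and lines run from the lowest to the highest of the 18 samples; the means go from 39.8 TPM for *Hmgcs1* to 1.196 TPM for *Nr1h3*.

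The first comparison asked how the genes differ between the dorsal and ventral poles, with the difference averaged over SH and EE. Values in CPM are counts scaled by depth and normalization, and compare samples for one gene. A log2 fold change above 0 means higher in dorsal DG, and the false discovery rate (FDR) is the p value of the edgeR quasi-likelihood test after Benjamini-Hochberg adjustment over all 17040 genes. At FDR < 0.05, 22 of the 32 genes were higher in ventral DG, 6 were higher in dorsal DG and 4 did not pass. Over all genes tested, 58.4% passed, 29.3% were higher in ventral and 29% higher in dorsal DG by the same rule. The median log2 fold change was -0.21 over the 32 genes and -0.0046 over all genes. With a fold change of at least 20% as well, 9 genes were higher in ventral DG (background 16.8%) and 3 in dorsal DG (background 15.9%). In either direction, this called 12 of the 32 genes (37.5%) against 32.7% of all genes, a share close to the background. The differences were small, and none of the 32 reached a log2 fold change of 1.

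**Figure D2:**
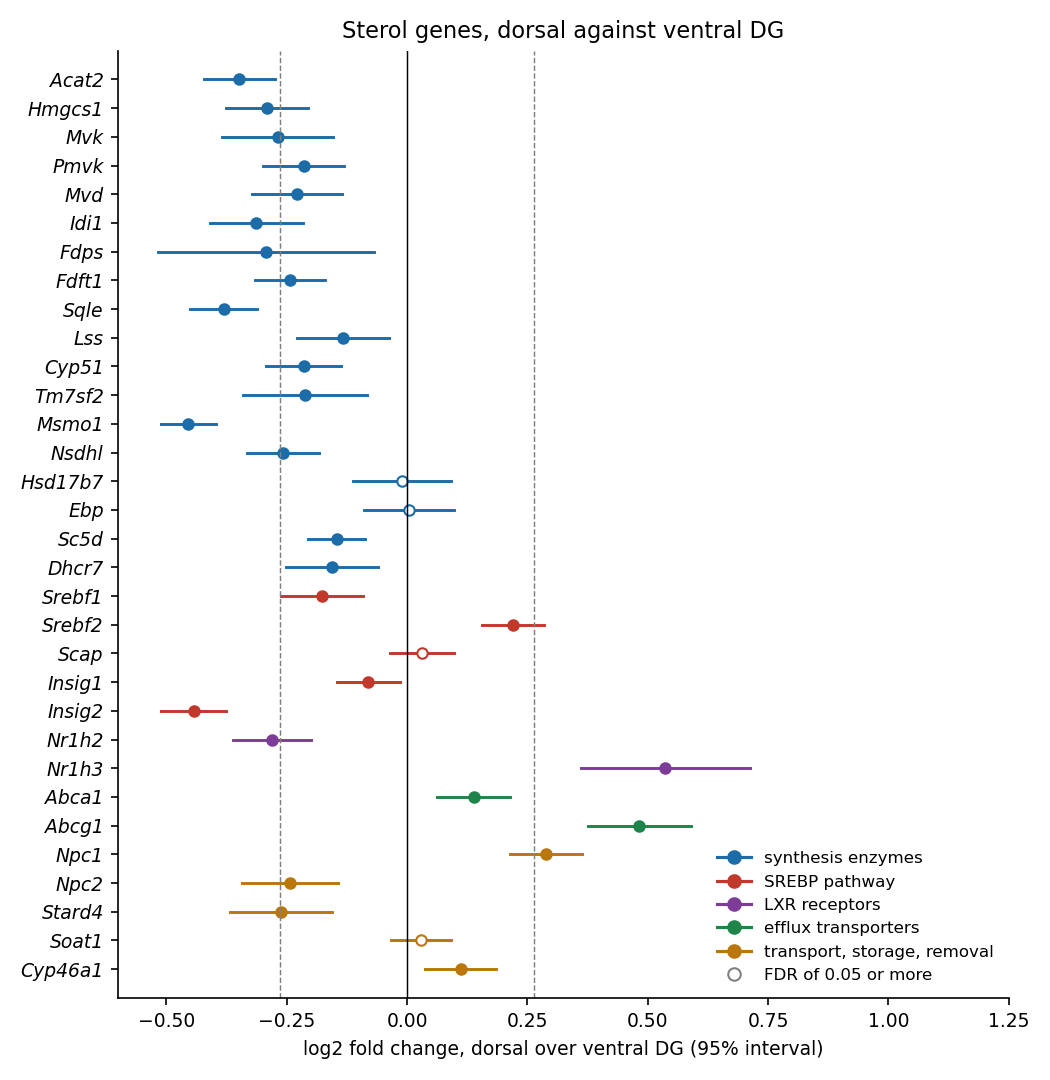
Log2 fold change of each gene, dorsal over ventral DG, with its 95% interval from the fit of 18 samples. Filled points passed FDR < 0.05 and dashed lines mark a fold change of 20%; the filled points of 16 synthesis enzymes lie below 0, while *Nr1h3*, *Abcg1* and *Npc1* lie above the upper line.

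Of the 18 synthesis enzymes, 16 were higher in ventral DG at FDR < 0.05, none was higher in dorsal DG and 2 did not pass. The median log2 fold change of the 18 was -0.24. Those past the fold limit in the main fit were *Acat2*, *Hmgcs1*, *Mvk*, *Idi1*, *Fdps*, *Sqle* and *Msmo1*, which span the route from acetyl-CoA to the sterol steps.

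Promoter sequences of 26 of the 32 genes were taken from RefSeq (GRCm38.p6), as the 250 bases before the start. No such window was counted for *Abcg1*, *Fdft1*, *Fdps*, *Npc1*, *Sqle* and *Stard4*, so nothing is said here about their promoters. The CCAAT box (letters CCAAT, or ATTGG on the other strand) binds NF-Y, a factor that acts with SREBPs. It was in at least 1 window of 14 of the 15 synthesis enzymes with a window counted. It was also in 7 of the 11 other genes with a window counted, against 37.5% of all 27025 genes. These are all genes with a window and were not limited to the 17040 tested in the DG, unlike the other background shares here. The GC box (GGGCGG, or CCGCCC) was in 22 of the 26, against 35.4% of all genes. A sterol regulatory element spelled TCACNCCAC (or its complement) was in 1 of the 26, *Hmgcs1*, against 1.22%. The LXR repeat AGGTCA, any 4 letters, AGGTCA (or its complement) was in 0 of the 26, against 0.0148%. Each spelling was counted by itself, also where its letters overlap those of another, and a match describes the letters only. The windows of *Hmgcs1* (chr13:119690101-119690350, plus strand) and *Mvk* (chr5:114444019-114444268, plus strand), an early enzyme of the route with 5 CCAAT boxes, are shown 5′ to 3′, *Hmgcs1* for its sterol regulatory element and *Mvk* for its CCAAT boxes, the most in any window of the 26 genes. Capitals mark CCAAT on either strand and, in *Hmgcs1*, the sterol regulatory element.
Hmgcs1: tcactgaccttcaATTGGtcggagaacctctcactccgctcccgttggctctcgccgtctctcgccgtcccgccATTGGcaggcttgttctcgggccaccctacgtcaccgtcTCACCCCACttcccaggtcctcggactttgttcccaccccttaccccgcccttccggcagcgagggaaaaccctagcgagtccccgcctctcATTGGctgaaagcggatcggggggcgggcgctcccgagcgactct
Mvk: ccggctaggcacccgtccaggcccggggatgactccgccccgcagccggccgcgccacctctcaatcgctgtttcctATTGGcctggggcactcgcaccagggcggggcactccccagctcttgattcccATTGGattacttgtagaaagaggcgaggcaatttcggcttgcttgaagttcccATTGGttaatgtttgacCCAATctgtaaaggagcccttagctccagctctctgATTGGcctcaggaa

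*Msmo1* (chr8:64718139-64733792, minus strand, GRCm38), which removes methyl groups from the sterol ring, showed the clearest separation of the enzymes. Its values were 78.98, 80.7, 84.8 and 82.9 CPM in dorsal SH, 85.5, 82.7, 80.04, 81.9 and 84.5 in dorsal EE, 109, 112, 117 and 111 in ventral SH and 117, 112, 112, 116 and 110.3 in ventral EE. All 9 ventral samples lay above all 9 dorsal samples, and *Msmo1* was 37.1% higher in ventral DG (log2 fold change -0.45 ± 0.028 SE, FDR 4.08e-12). *Sqle* (chr15:59315077-59331192, plus strand), the squalene epoxidase that starts the sterol part of the route, had values of 48.99, 45.9, 46.6 and 47.7 CPM in dorsal SH, 49.95, 45.8, 45.4, 46.9 and 46.1 in dorsal EE, 61.8, 59.6, 62.5 and 61.8 in ventral SH and 63.6, 54.3, 61.7, 64.6 and 61.4 in ventral EE. Again no dorsal sample reached a ventral one, and *Sqle* was 30.2% higher in ventral DG (log2 fold change -0.38 ± 0.034 SE, FDR 2.32e-09). *Hmgcs1* had 223 to 278 CPM in dorsal DG (median 241, 9 samples) and 288 to 316 CPM in ventral DG (median 299, 9 samples). For *Hmgcs1*, the group means ± SD were 246 ± 18.9 CPM in dorsal SH and 243 ± 20.8 in dorsal EE, 295 ± 5.25 in ventral SH and 302 ± 9.504 in ventral EE. The regions did not overlap, and *Hmgcs1* was 22.3% higher in ventral DG (log2 fold change -0.29 ± 0.041 SE, FDR 2.88e-06).

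*Acat2*, a cytosolic thiolase that joins acetyl-CoA units, had 25.3 to 29.9 CPM in dorsal DG (median 26.1, 9 samples) and 30.96 to 36.2 CPM in ventral DG (median 33.7, 9 samples), without overlap. For *Acat2*, the group means ± SD were 25.95 ± 0.537 CPM in dorsal SH and 27.1 ± 1.66 in dorsal EE, 34.4 ± 1.22 in ventral SH and 33.1 ± 1.75 in ventral EE. *Acat2* was 27.3% higher in ventral DG (log2 fold change -0.35 ± 0.036 SE, FDR 2.58e-08). *Mvk*, the mevalonate kinase, had 15.8 to 21.3 CPM in dorsal DG (median 17.6, 9 samples) and 18.9 to 25.4 CPM in ventral DG (median 20.4, 9 samples), so that the regions overlapped, but the ventral sample was the higher one in all 9 pools. For *Mvk*, the group means ± SD were 16.7 ± 0.938 CPM in dorsal SH and 18.5 ± 1.58 in dorsal EE, 20.8 ± 1.48 in ventral SH and 21.6 ± 2.56 in ventral EE. *Mvk* was 20.5% higher in ventral DG (log2 fold change -0.27 ± 0.056 SE, FDR 2.62e-04). *Idi1*, the isopentenyl diphosphate isomerase, had 12.6 to 16.9 CPM in dorsal DG (median 14.7, 9 samples) and 16.5 to 19.9 CPM in ventral DG (median 18.2, 9 samples), and the ventral sample was higher in all 9 pools. For *Idi1*, the group means ± SD were 14.5 ± 0.364 CPM in dorsal SH and 14.8 ± 1.49 in dorsal EE, 17.7 ± 0.8995 in ventral SH and 18.7 ± 0.876 in ventral EE. *Idi1* was 24.3% higher in ventral DG (log2 fold change -0.31 ± 0.046 SE, FDR 5.15e-06).

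*Fdps* had 1.18 to 2.04 CPM in dorsal DG (median 1.63, 9 samples) and 1.495 to 2.40 CPM in ventral DG (median 2.04, 9 samples), and the ventral sample was higher in 8 of 9 pools. For *Fdps*, the group means ± SD were 1.697 ± 0.201 CPM in dorsal SH and 1.57 ± 0.309 in dorsal EE, 2.06 ± 0.292 in ventral SH and 1.93 ± 0.252 in ventral EE. *Fdps* was 22.5% higher in ventral DG (log2 fold change -0.29 ± 0.11 SE, FDR 0.0245). Its unique counts were 3.11% of the RSEM expected count, which shares out fragments that fit several genes, so the value is uncertain. The corresponding shares were 24.2% for *Idi1* and 72.4% for *Acat2*. With expected counts, the log2 fold change was -0.15 for *Fdps* (FDR 3.14e-04), -0.33 for *Idi1* (FDR 2.78e-06) and -0.36 for *Acat2* (FDR 1.48e-08). The value of *Fdps* was then below the fold limit, so it was not called with these counts. *Fdps* did not pass FDR < 0.05 in 6 of 19 alternatives, which were those without SH replicate 1 (FDR 0.09203), EE replicate 1 (FDR 0.0805) or EE replicate 5 (FDR 0.0519), with SH replicate 3 put back (FDR 0.0516), without 3 libraries high in choroid plexus markers (FDR 0.0531) and in the joint test of both housings (FDR 0.0744).

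The other 9 enzymes that passed FDR < 0.05 were *Pmvk*, *Mvd*, *Fdft1*, *Lss*, *Cyp51*, *Tm7sf2*, *Nsdhl*, *Sc5d* and *Dhcr7*, with log2 fold changes from -0.26 (*Nsdhl*) to -0.13 (*Lss*). *Nsdhl*, the sterol dehydrogenase of the same demethylation complex as *Msmo1*, had 14.4 to 16.2 CPM in dorsal DG (median 15.6, 9 samples) and 16.9 to 20.1 CPM in ventral DG (median 18.4, 9 samples), and *Sc5d*, the lathosterol oxidase, had 55.6 to 62.4 CPM in dorsal DG (median 59.9, 9 samples) and 62.9 to 67.6 CPM in ventral DG (median 65.7, 9 samples). In both, all ventral samples lay above all dorsal ones. *Lss*, which closes the ring of lanosterol, did not pass FDR < 0.05 without SH replicate 5 (log2 fold change -0.11, FDR 0.0762). The enzymes that did not pass were *Hsd17b7*, a keto-reductase of the demethylation steps, and *Ebp*, the sterol isomerase. *Hsd17b7* had 20.7 to 24.9 CPM in dorsal DG (median 23.6, 9 samples) and 20.5 to 24.9 CPM in ventral DG (median 23.3, 9 samples) (log2 fold change -0.011 ± 0.049 SE, FDR 0.864), with a 95% interval of -0.11 to 0.091. *Ebp* had 13.3 to 16.9 CPM in dorsal DG (median 15.5, 9 samples) and 13.7 to 16.6 CPM in ventral DG (median 14.8, 9 samples) (log2 fold change 0.0041 ± 0.045 SE, FDR 0.947), with a 95% interval of -0.089 to 0.10.

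The 5 genes of the SREBP pathway did not move as one. *Insig2* (chr1:121304353-121332589, minus strand), the other SCAP retention protein, had values of 47.2, 48.8, 46.9 and 44.9 CPM in dorsal SH, 42.4, 40.8, 44.5, 42.5 and 44.4 in dorsal EE, 66.5, 66.8, 64.8 and 60.3 in ventral SH and 62.3, 56.7, 55.9, 57.6 and 55.9 in ventral EE. All ventral samples lay above all dorsal samples, and *Insig2* was 36.0% higher in ventral DG (log2 fold change -0.44 ± 0.032 SE, FDR 9.07e-11). *Insig1* had 74.8 to 84.9 CPM in dorsal DG (median 80.1, 9 samples) and 80.9 to 91.2 CPM in ventral DG (median 84.5, 9 samples), and the regions overlapped. For *Insig1*, the group means ± SD were 79.7 ± 2.25 CPM in dorsal SH and 80.3 ± 3.66 in dorsal EE, 83.4 ± 3.24 in ventral SH and 85.8 ± 3.81 in ventral EE. *Insig1* was 5.75% higher in ventral DG (log2 fold change -0.081 ± 0.032 SE, FDR 0.0336), and the ventral sample was the higher one in all 9 pools. This small difference, below the fold limit, did not pass FDR < 0.05 in 10 of the 19 alternative fits, among them 7 of the 9 that left out a pool (FDR 0.0507 to 0.0924 over the 10). The genes of the transcription factors went in opposite directions. *Srebf1*, which encodes SREBP1, the form tied most to fatty acid synthesis, had 48.5 to 58.3 CPM in dorsal DG (median 52.8, 9 samples) and 55.8 to 65.4 CPM in ventral DG (median 60.8, 9 samples) and was 13.1% higher in ventral DG (log2 fold change -0.18 ± 0.041 SE, FDR 7.82e-04). *Srebf2*, which encodes SREBP2, the form tied most to cholesterol synthesis, had 115 to 129 CPM in dorsal DG (median 119.5, 9 samples) and 96.5 to 110.3 CPM in ventral DG (median 103, 9 samples) and was 16.5% higher in dorsal DG (log2 fold change 0.22 ± 0.031 SE, FDR 2.49e-06). *Srebf2* was lower in the region where the synthesis enzymes were higher, and its samples did not overlap between regions. *Scap*, the escort protein, had 89.6 to 102 CPM in dorsal DG (median 96.7, 9 samples) and 91.1 to 99.96 CPM in ventral DG (median 94.4, 9 samples) and did not pass (log2 fold change 0.031 ± 0.032 SE, FDR 0.422). The window before the most upstream of 3 starts of *Insig2* (chr1:121332590-121332839, minus strand) is shown because this gene had the largest difference of the pathway, with the 3 CCAAT boxes in capitals. The windows of its other starts hold no CCAAT box, and which start is used in the DG was not tested.
Insig2: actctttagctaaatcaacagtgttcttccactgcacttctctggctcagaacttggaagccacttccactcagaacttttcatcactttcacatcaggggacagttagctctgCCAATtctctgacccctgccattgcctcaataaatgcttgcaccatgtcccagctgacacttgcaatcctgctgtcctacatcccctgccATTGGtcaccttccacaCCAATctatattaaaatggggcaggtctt

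**Figure D3:**
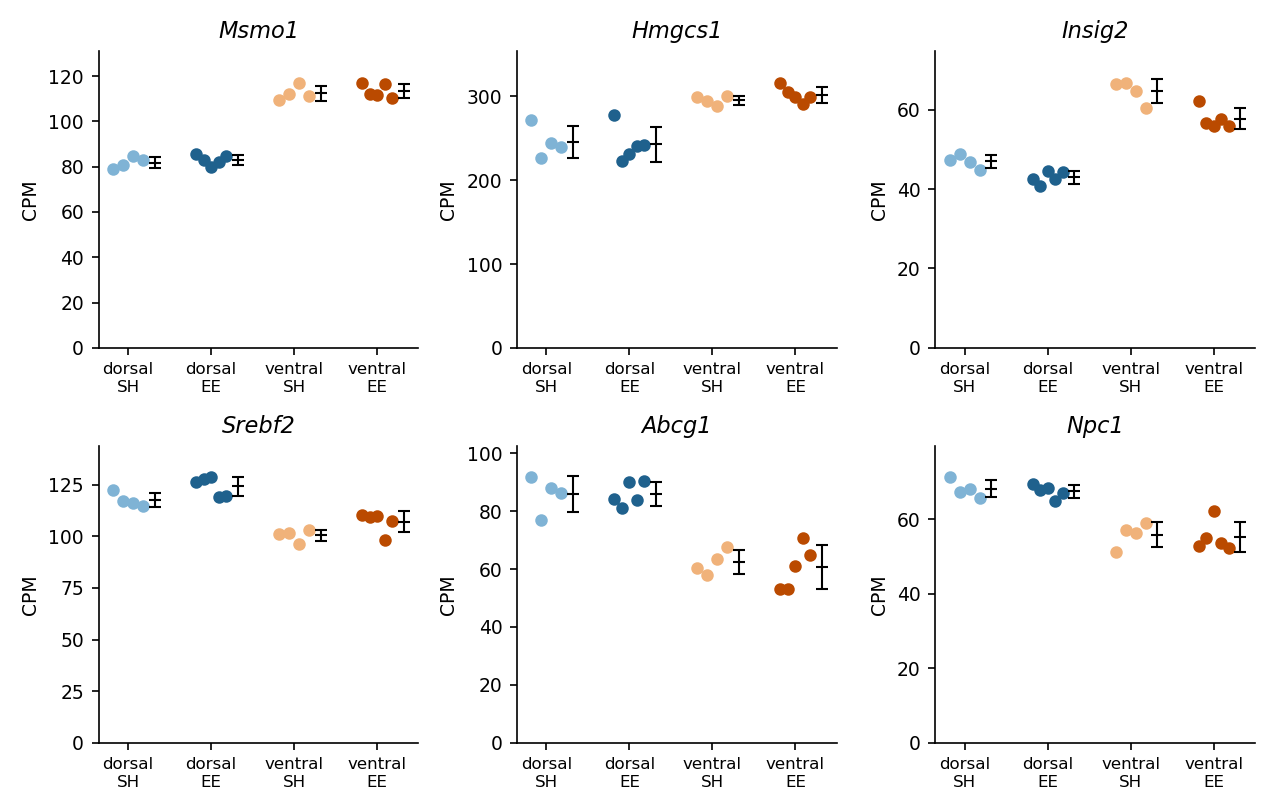
CPM of 6 genes in every sample of the 4 groups, with the mean and SD of each group in black. *Msmo1*, *Hmgcs1* and *Insig2* are higher in each ventral sample than in each dorsal one, and *Srebf2*, *Abcg1* and *Npc1* are lower in each ventral sample.

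The LXR genes also went in opposite directions. *Nr1h3* (chr2:91184061-91202834, minus strand) had values of 4.34, 4.93, 5.21 and 4.54 CPM in dorsal SH, 3.98, 6.21, 5.65, 6.19 and 5.696 in dorsal EE, 3.39, 3.64, 3.48 and 3.395 in ventral SH and 4.27, 3.48, 3.72, 3.46 and 2.999 in ventral EE. The regions overlapped through 1 low dorsal EE sample, and the dorsal sample was higher in 8 of 9 pools. *Nr1h3* was 45.0% higher in dorsal DG (log2 fold change 0.54 ± 0.085 SE, FDR 1.17e-05), and it rested on 77 to 163 counts per sample. *Nr1h2* had 21.8 to 26.6 CPM in dorsal DG (median 23.5, 9 samples) and 26.5 to 31.5 CPM in ventral DG (median 28.7, 9 samples), and the ventral sample was higher in all 9 pools. For *Nr1h2*, the group means ± SD were 23.4 ± 1.17 CPM in dorsal SH and 23.9 ± 1.67 in dorsal EE, 27.8 ± 1.23 in ventral SH and 29.6 ± 1.35 in ventral EE. *Nr1h2* was 21.4% higher in ventral DG (log2 fold change -0.28 ± 0.039 SE, FDR 2.39e-06).

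Both efflux transporters were higher in dorsal DG. *Abcg1* (chr17:31057675-31117988, plus strand), which moves cholesterol to lipoprotein particles, had values of 91.6, 77.1, 88.04 and 86.3 CPM in dorsal SH, 84.04, 81.2, 90.1, 83.8 and 90.4 in dorsal EE, 60.5, 57.8, 63.3 and 67.6 in ventral SH and 53.2, 53.1, 61.2, 70.7 and 64.7 in ventral EE. All dorsal samples lay above all ventral samples, and *Abcg1* was 39.7% higher in dorsal DG (log2 fold change 0.48 ± 0.051 SE, FDR 4.44e-08). *Abca1*, which loads lipid onto apolipoproteins, had 74.4 to 86.7 CPM in dorsal DG (median 79.9, 9 samples) and 63.1 to 77.3 CPM in ventral DG (median 72.7, 9 samples), with the dorsal sample higher in 8 of 9 pools. *Abca1* was 10.1% higher in dorsal DG (log2 fold change 0.14 ± 0.037 SE, FDR 0.00256), below the fold limit. Its window (chr4:53159896-53160145, minus strand) holds no CCAAT box and no sterol regulatory element in the spelling above, so it has no capitals. It is an example only. Of the genes higher in dorsal DG with a window, *Srebf2* and *Cyp46a1* held a CCAAT box, and *Abca1* and *Nr1h3* held none. Of those higher in ventral DG, *Acat2* and *Nr1h2* held none and the others held one. Whether the box goes with region was not tested.
Abca1: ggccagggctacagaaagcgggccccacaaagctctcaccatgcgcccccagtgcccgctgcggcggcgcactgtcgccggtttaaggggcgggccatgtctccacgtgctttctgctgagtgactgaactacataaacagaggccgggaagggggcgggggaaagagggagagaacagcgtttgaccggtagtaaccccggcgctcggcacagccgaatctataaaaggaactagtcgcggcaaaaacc

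The 5 genes of transport, storage and removal were split. *Npc1*, the membrane protein that exports cholesterol from lysosomes, had 64.9 to 71.2 CPM in dorsal DG (median 67.7, 9 samples) and 51.1 to 62.1 CPM in ventral DG (median 54.9, 9 samples), without overlap. For *Npc1*, the group means ± SD were 68.1 ± 2.28 CPM in dorsal SH and 67.5 ± 1.72 in dorsal EE, 55.9 ± 3.36 in ventral SH and 55.1 ± 3.997 in ventral EE. *Npc1* was 22.2% higher in dorsal DG (log2 fold change 0.29 ± 0.036 SE, FDR 5.00e-07). *Npc2*, the soluble lysosomal protein that hands cholesterol to NPC1, went the other way, with 47.6 to 59.9 CPM in dorsal DG (median 50.4, 9 samples) and 54.4 to 69.6 CPM in ventral DG (median 60.02, 9 samples), and was 18.4% higher in ventral DG (log2 fold change -0.24 ± 0.048 SE, FDR 1.66e-04). *Stard4*, a cytosolic sterol carrier, had 15.4 to 20.98 CPM in dorsal DG (median 19.3, 9 samples) and 20.9 to 24.8 CPM in ventral DG (median 22.7, 9 samples) and was 19.9% higher in ventral DG (log2 fold change -0.26 ± 0.051 SE, FDR 1.51e-04). In both of these genes the ventral sample was the higher one in all 9 pools. *Cyp46a1*, by which neurons turn cholesterol into an oxysterol that can leave the brain, had 76.7 to 89.9 CPM in dorsal DG (median 83.4, 9 samples) and 71.8 to 84.1 CPM in ventral DG (median 77.2, 9 samples). For *Cyp46a1*, the group means ± SD were 80.9 ± 4.04 CPM in dorsal SH and 85.6 ± 4.26 in dorsal EE, 76.4 ± 2.35 in ventral SH and 77.6 ± 4.69 in ventral EE. *Cyp46a1* was 8.04% higher in dorsal DG (log2 fold change 0.11 ± 0.035 SE, FDR 0.00978). *Soat1*, which esterifies cholesterol for storage, had 51.1 to 59.8 CPM in dorsal DG (median 56.1, 9 samples) and 52.1 to 57.6 CPM in ventral DG (median 55.5, 9 samples) and did not pass (log2 fold change 0.029 ± 0.030 SE, FDR 0.421).

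Sample by sample, all 9 ventral samples lay above all 9 dorsal samples in 7 of the 32 genes (background 9.44%), and below them in 3 (background 9.52%). Within pools, the ventral sample was higher in all 9 pools in 17 genes (background 20.4%) and the dorsal sample in 3 (background 20.1%). The median log2 deviation of the 18 synthesis enzymes from their means over samples was -0.15 to -0.086 in the dorsal and 0.074 to 0.20 in the ventral samples. For the 2 efflux transporters it was 0.087 to 0.23 in the dorsal and -0.27 to -0.058 in the ventral samples. These 2 groups of genes separated every sample by region, while the SREBP pathway (-0.14 to 0.045 in dorsal, -0.026 to 0.12 in ventral samples), the LXR receptors and the genes of transport, storage and removal overlapped. Of the 2 efflux transporters, *Abcg1* separated the samples by itself, and *Abca1* overlapped between regions.

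**Figure D4:**
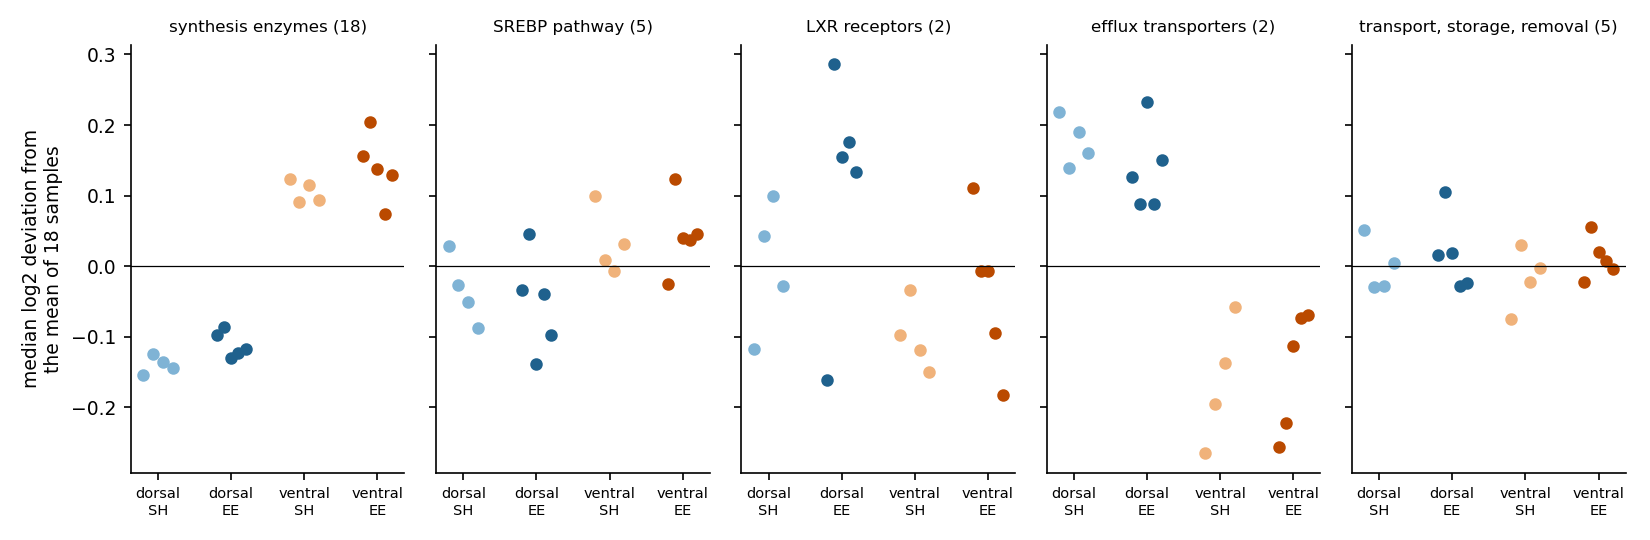
Median log2 deviation of the genes of each role from their means over 18 samples, one point per sample, with the number of genes in brackets. Synthesis enzymes lie above 0 in each ventral sample and below 0 in each dorsal sample, and efflux transporters show the reverse.

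Markers of some cell types differed between the regions as well. Their counts are to be read against the 29.3% of all genes higher in ventral and the 29% higher in dorsal DG at FDR < 0.05. Among 8 astrocyte markers at FDR < 0.05, 5 had higher levels in ventral DG and none in dorsal DG, and their summed level was 6158 to 7818 CPM in dorsal and 6839 to 9355 CPM in ventral DG. All 6 choroid plexus markers were higher in ventral DG, with sums of 22.5 to 208 CPM in dorsal and 387 to 1417 CPM in ventral DG. Of 5 markers of oligodendrocyte precursors, 3 were higher in ventral DG (208 to 241 CPM in dorsal and 230.4 to 275 CPM in ventral DG). Of 8 oligodendrocyte markers, 3 were higher in dorsal DG (2141 to 3051 CPM in dorsal and 1910 to 3258 CPM in ventral DG). All 4 granule neuron markers, among them *Prox1*, were higher in dorsal DG, with sums of 783 to 963 CPM in dorsal and 395 to 585 CPM in ventral DG, and 1 of 3 pan-neuronal markers was (2541 to 3217 CPM in dorsal and 2513 to 3347 CPM in ventral DG). None of 6 microglia markers (419 to 484 CPM in dorsal and 435 to 477 CPM in ventral DG) and none of 4 endothelial markers (182 to 212 CPM in dorsal and 175 to 215 CPM in ventral DG) passed in the region comparison. For EE against SH, 1 marker passed in either region, the microglial *P2ry12* in dorsal DG (log2 fold change -0.23 ± 0.054 SE, FDR 0.0441), where 0.716% of all genes passed. No marker was at 0 in any sample, and the part of these cell types in the sterol differences was not tested. Without 3 libraries high in choroid plexus markers for their group, chosen after these values were seen, 13 of the 32 genes were called, 10 of them higher in ventral DG. That fit called 5381 of all 16922 genes, 2705 of them higher in ventral DG.

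Taken apart by housing, the difference between regions was seen in both. In SH, 17 genes were higher in ventral (background 20.8%) and 5 in dorsal DG (background 20.9%) at FDR < 0.05, and 11 passed the fold limit too (background 28.3%). In EE, 20 were higher in ventral (background 23.6%) and 5 in dorsal DG (background 22.9%), and 13 passed the fold limit (background 29.8%). Of the synthesis enzymes, 12 were higher in ventral DG in SH and 15 in EE, against the same background shares, with median log2 fold changes of -0.24 and -0.22. The 28 genes that passed FDR < 0.05 over both housings had the same direction in SH as in EE. Their choice by the average of both housings makes this likely in advance. *Msmo1* had a log2 fold change of -0.46 in SH and -0.45 in EE, and *Insig2* had -0.46 and -0.43. *Abca1* passed in SH (log2 fold change 0.22 ± 0.054 SE, FDR 0.002504) and not in EE (log2 fold change 0.057 ± 0.049 SE, FDR 0.356), but the difference between these values did not pass the test of the interaction (FDR 1.0).

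The second comparison asked whether housing in EE changed these genes. At FDR < 0.05 in edgeR, 0 of the 32 passed in dorsal DG (background 0.716%) and 0 in ventral DG (background 0.246%). DESeq2 called none in either region. An unadjusted p under 0.05 was found for 2 genes in dorsal DG (background 8.81%) and 4 in ventral DG (background 7.58%). The median log2 fold change, EE over SH, of the 32 genes was 0.015 in dorsal and 0.027 in ventral DG. The 95% interval lay within a change of 20% in either direction for 28 of the 32 genes in dorsal and 29 in ventral DG. Outside it in dorsal DG were *Mvk*, *Fdps*, *Ebp* and *Nr1h3*, and in ventral DG *Mvd*, *Fdps* and *Nr1h3*. The widest intervals were those of *Fdps*, -0.44 to 0.22 in dorsal and -0.41 to 0.21 in ventral DG.

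**Figure D5:**
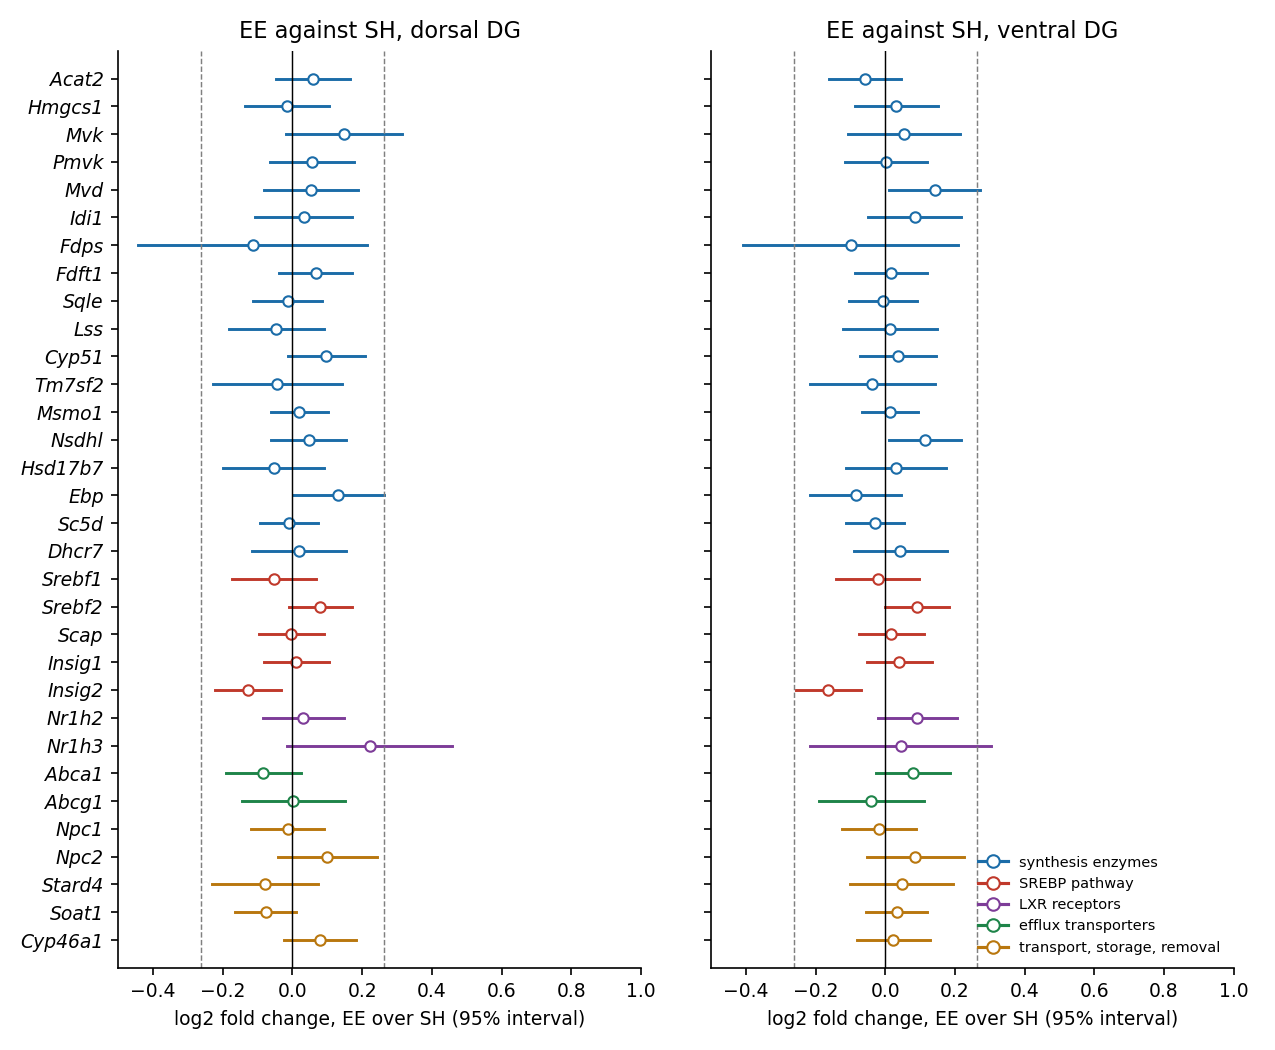
Log2 fold change of each gene, EE over SH, in dorsal (left) and ventral DG (right) with 95% intervals. Open points did not pass FDR < 0.05, which holds for all 32 genes in both regions, and most intervals lie inside the dashed lines at a fold change of 20%.

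*Insig2* came nearest to the threshold in both regions. In dorsal DG, its SH samples had 47.2, 48.8, 46.9 and 44.9 CPM and its EE samples 42.4, 40.8, 44.5, 42.5 and 44.4 CPM. In ventral DG, they had 66.5, 66.8, 64.8 and 60.3 CPM and 62.3, 56.7, 55.9, 57.6 and 55.9 CPM. All dorsal EE samples lay below all dorsal SH samples, which was so for 1 of the 32 genes and 1.78% of all genes, whereas 1 ventral EE sample lay among the SH samples. The difference did not pass in dorsal (log2 fold change -0.13, 95% interval -0.22 to -0.033, FDR 0.323) or ventral DG (log2 fold change -0.16, 95% interval -0.26 to -0.071, FDR 0.1898). *Mvd*, *Nsdhl* and *Srebf2* in ventral DG and *Ebp* in dorsal DG were the other genes with an unadjusted p under 0.05, with log2 fold changes of 0.14, 0.11, 0.091 and 0.13, and FDR of 0.611, 0.6099, 0.657 and 0.565. For *Msmo1*, the enzyme with the clearest difference between regions, EE over SH gave log2 fold change 0.020, 95% interval -0.062 to 0.10, FDR 0.935 in dorsal and log2 fold change 0.014, 95% interval -0.066 to 0.095, FDR 0.958 in ventral DG.

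A difference between the EE effects of dorsal and ventral DG was assessed by the interaction term. It passed for 0 of the 32 genes at FDR < 0.05 in edgeR and 0 in DESeq2 (background 0.00587%), and an unadjusted p under 0.05 was found for 2, *Ebp* and *Abca1* (background 3.25%). The EE effect on *Ebp* was higher in dorsal than in ventral DG by 0.22 on the log2 scale (95% interval 0.032 to 0.40), and that on *Abca1* had a difference of -0.16 (95% interval -0.31 to -0.011).

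Other genes of the pathway, in lists that hold none of the 32, gave a mixed picture between regions at FDR < 0.05. The counts are to be read against the 29.3% of all genes that were higher in ventral and the 29% higher in dorsal DG. Of other genes of sterol and isoprenoid synthesis, 5 of 9 were higher in ventral and 2 in dorsal DG. Of SREBP targets in fatty acid synthesis, 6 of 12 were higher in ventral and 1 in dorsal DG, and *Me1*, the cytosolic malic enzyme that supplies NADPH, had 33.7 to 40.6 CPM in dorsal and 56.1 to 63.8 CPM in ventral DG (log2 fold change -0.67 ± 0.039 SE, FDR 2.05e-12). Of genes of SREBP cleavage and sterol sensing, 3 of 7 were higher in ventral and 2 in dorsal DG. Among lipoproteins and their receptors, 3 of 11 were higher in ventral and 5 in dorsal DG. Of LXR partners and targets, 2 of 8 were higher in ventral and 3 in dorsal DG. *Rxrg*, a retinoid X receptor of the family that pairs with LXRs, had 0.773 to 1.26 CPM in dorsal and 3.33 to 5.702 CPM in ventral DG (log2 fold change -2.02 ± 0.12 SE, FDR 2.57e-12), and *Ncoa1*, a coactivator of nuclear receptors, had 169.8 to 208 CPM in dorsal and 129.6 to 157 CPM in ventral DG (log2 fold change 0.39 ± 0.044 SE, FDR 1.04e-07). Among genes that handle sterol inside the cell, 6 of 13 were higher in ventral and 2 in dorsal DG. Of 5 oxysterol enzymes, *Cyp7b1*, which hydroxylates oxysterols, passed, with 54.4 to 63.2 CPM in dorsal and 36.1 to 42.6 CPM in ventral DG (log2 fold change 0.59 ± 0.034 SE, FDR 2.01e-12). The median log2 fold change of these lists ran from -0.19 to 0.090.

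*Ch25h*, the cholesterol 25-hydroxylase, was the only one of the pathway genes tested that passed FDR < 0.05 for EE in either region, and it did so in ventral DG. Ventral SH samples had 0.388, 0.1502, 0.0810 and 0.256 CPM and ventral EE samples 1.16, 0.996, 0.548, 0.551 and 0.592 CPM, which were 2 to 11 and 14 to 30 counts. Dorsal SH samples had 0.0717, 0.329, 0.171 and 0.335 CPM and dorsal EE samples 0.552, 0.745, 0.731, 0.652 and 0.629 CPM, which were 2 to 9 and 15 to 18 counts. In both regions each EE sample lay above each SH sample, at these low counts. No share over all genes is given for this direction, so it is not read as support. *Ch25h* met the filter of counts over 10 in at least 2 samples through its EE samples, the group where it was higher. Its test is therefore not independent of that choice, and its SH values lie near the floor. With this limit, *Ch25h* was higher in EE in ventral DG (log2 fold change 1.75 ± 0.37 SE, FDR 0.0408). Its value in dorsal DG did not pass (log2 fold change 1.53 ± 0.38 SE, FDR 0.0621). The effects gave no difference past the threshold in the test of the interaction (FDR 1.0). The ventral call was lost in 7 of the 9 fits that each left out a pool (FDR 0.0594 to 0.236), and was kept without SH replicate 1 or EE replicate 4. It was also lost without the 3 libraries high in choroid plexus markers (FDR 0.0647), with RSEM expected counts (FDR 0.0806) and in a fit of the ventral samples alone (FDR 0.168), and it was kept with DESeq2 (FDR 0.005603). In all, 8 of 18 alternatives passed in ventral DG (FDR 0.00548 to 0.236) and 4 of 18 in dorsal DG (FDR 0.0202 to 0.275). Those in dorsal DG were DESeq2 (FDR 0.0202), the fit with no low-count filter (FDR 0.0226), the dorsal samples alone (FDR 0.0321) and the replicate block (FDR 0.0393).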

How the data were processed

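RNA-Seq was analysed from the 20 samples of dorsal and ventral DG, as paired-end libraries of total RNA made with a stranded kit. Per the submitters' processing notes, the authors used Trim Galore 0.4.0, STAR 2.5.1b and RSEM 1.2.30 with genome build mm10. The files the authors deposited hold STAR read counts per gene, of which the reverse-strand column was used, and, from RSEM, an expected count and TPM per gene. Methylation samples were not analysed here. SH replicate 3 was left out in both regions, because the study excluded 1 SH sample with high *Xist* and this replicate was taken to be it.

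Genes with counts over 10 in at least 2 samples were kept (17040 of 46480). The 18 samples of 4 groups were fitted with the edgeR 4.0.16 quasi-likelihood test (TMM normalization, R 4.3.3), and p values were adjusted over all genes by the Benjamini-Hochberg method (FDR). This fit had no block for the pool. Called genes had FDR < 0.05 and differed by 20% or more. The fit was tested on simulated data. DESeq2 1.42.0 (default size factors), other filters, another normalization, unstranded and RSEM expected counts (rounded), all 20 samples, a replicate block and leaving out each pool were tried as alternatives. A pool gave its dorsal and ventral sample from the same mice, and their deviations from the group means had a mean correlation of 0.0827 (9 pools). In 40 within-group pairs of samples, chi-square per degree of freedom was 2.94 to 39.3, so samples of a group differed by more than sampling noise.

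The 32 genes, the pathway lists and the markers were chosen with earlier results of these data known. Values in every group are given for called genes and for the gene with the highest TPM of each role. Of the pathway lists, at most the 2 called genes with the largest and the 2 with the smallest log2 fold change per comparison are named. *Idi2* and *Soat2* had too few counts to be tested, and *Ufd1l* matched no symbol. Some genes of these lists are not reported here.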

Additional observations from a re-analysis of the deposited data

Results flagged for a closer look

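Among the 128 sets of 4 or 5 samples (32 genes in 4 groups), 10 held a sample that stood apart from the others of its group by Dixon's test. Chance alone gives about 1 in 20 sets, and no cause was tested. *Acat2* had 29.9 CPM in dorsal EE replicate 2, with the others at 25.8 to 26.8 CPM. *Acat2* stood at 36.2 CPM in ventral SH replicate 4, with the others at 33.7 to 34.03 CPM. *Mvk* reached 21.3 CPM in dorsal EE replicate 2, with the others at 17.5 to 18.1 CPM. *Fdps* had 1.495 CPM in ventral EE replicate 4, with the others at 1.96 to 2.13 CPM. *Tm7sf2* stood at 13.7 CPM in ventral EE replicate 2, with the others at 11.5 to 11.8 CPM. *Srebf2* had 98.2 CPM in ventral EE replicate 4, with the others at 108 to 110.3 CPM. *Insig2* stood at 62.3 CPM in ventral EE replicate 1, with the others at 55.9 to 57.6 CPM. *Nr1h3* had 3.98 CPM in dorsal EE replicate 1, with the others at 5.65 to 6.21 CPM. *Npc1* reached 62.1 CPM in ventral EE replicate 3, with the others at 52.4 to 54.9 CPM. *Npc2* stood at 53.9 CPM in dorsal SH replicate 2, with the others at 47.6 to 48.2 CPM.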

How the results depend on the processing

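Of the 32 genes, 12 were called between regions (background 32.7%). Under the alternatives that kept the fold limit and all pools, 11 to 14 were called. Without the fold limit, 28 passed over both housings, 22 in SH and 25 in EE. Of all 17040 genes, 9949, 7107 and 7925 passed by these rules. Leaving out 1 pool gave 8 to 14 calls over both housings, 9 to 14 in SH and 12 to 14 in EE. In the main fit, the background was 28.3% in SH and 29.8% in EE. The lowest count of 8 was without SH replicate 1, where 5162 of all 16942 genes were called. The counts for EE against SH in dorsal DG, in ventral DG and for the interaction were 0 to 0 without each pool and 0 under every other alternative run. No direction reversed. Of 532 alternative values for the 28 genes that passed between regions, 515 kept FDR < 0.05 and 17 did not, all in *Fdps*, *Lss* or *Insig1*. The cause was not tested.

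With the replicate block (the pool for region and interaction, the replicate number for EE within a region), 12 genes were called between regions, 11 in SH and 13 in EE, and 0 for EE and the interaction. Of all 17040 genes, 5611 were then called between regions, 4987 in SH and 5214 in EE. The block moved *Ch25h* in dorsal DG past the threshold (FDR 0.0393) and changed no other call named here. SH and EE samples of a number share only that number: their deviations had a mean correlation of 0.126, and 7 of 8 pairs were over 0.1. For *Insig2*, EE against SH had FDR 0.2196 to 0.6498 in dorsal and 0.0864 to 0.553 in ventral DG over 19 alternatives. Low counts limit *Ch25h*, *Fdps*, *Nr1h3* and, in dorsal DG, *Rxrg*.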
